A study of Drosophila melanogaster with 2 samples.

Results

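The genes described here encode the vacuolar proton pump and the Rab GTPases of Drosophila melanogaster. The measurements are peaks, at their start sites, of chromatin precipitated through a tagged transcription factor, fd3F. Members were the protein-coding genes of the dm6 annotation whose symbol begins with Vha, or with Rab or RabX and a digit. They were thus chosen by name and by no measured value, but the list was drawn up with earlier results of these data known. The rule gave 69 of the 13945 protein-coding genes on the 6 chromosome arms that hold peaks. Of these, 33 are pump genes, 33 are Rab genes and 3 (Rab3-GEF, Rab3-GAP and Rab3GAP1) encode regulators of Rab3 that carry its symbol. The pump accessory gene ATP6AP2, whose older symbol is VhaM8.9, does not begin with Vha in this annotation and is not a member.

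The flies expressed fd3F, a forkhead transcription factor known from chordotonal (stretch-sensing) neurons, with green fluorescent protein (GFP) at its C-terminus. Chromatin of whole embryos aged 8 to 18 h was precipitated with an antibody against GFP. All samples belong to 1 group, with 2 biological replicates numbered 1 and 3 and no untagged or other condition to contrast. Every cell type of the embryo is mixed in each sample, so strong binding in few cells and weak binding in many cannot be told apart.

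The vacuolar proton pump is a rotary enzyme that burns ATP to acidify lysosomes, endosomes and the lumen of transporting epithelia. Its soluble V1 sector (subunits A to H) hydrolyses ATP, and its membrane V0 sector (subunits a, c, c″, d and e) carries protons. Flies keep a widely used gene for each subunit and, for many subunits, extra copies known mainly from the male germ line, gut or nervous system. Rab proteins are small GTPases that switch between a GDP-bound and a GTP-bound state and give each membrane compartment its identity. Rab5 marks early endosomes, Rab7 late endosomes, Rab11 recycling endosomes and Rab1 the path from the endoplasmic reticulum to the Golgi, while Rab3, Rab26 and Rab27 are best known from neurons.

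Peaks came from 4 deposited lists: 30000 peaks for each replicate, 30000 for both replicates pooled, and 3917 reproducible peaks, which are the pooled peaks of highest signal. The signal is the authors' value for each peak on the scale of its own list, and ranks count from 1 at the highest signal. In the 30000-peak lists 11489 (replicate 1), 8373 (replicate 3) and 10181 (pooled) peaks have a deposited q-value of at most 0.05, so low ranks in these lists are weak evidence of binding. With no read counts in the lists, the depth behind a peak is unknown.

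Of the 69 members, 21 (30.4%, exact 95% interval 19.9 to 42.7%) had a reproducible summit within 1000 bp of a start site, where 20.8% of all protein-coding genes did. All 21 also had a start-site summit in the other 3 lists. Pump genes had one at 12 of 33 (36.4%), Rab genes at 8 of 33 (24.2%) and the Rab3 regulators at 1 of 3. In the pooled list, which reached 58.4% of all genes, 48 of 69 members (69.6%) had a start-site summit. Replicate 1 had 50 members (72.5%) where all genes had 60.1%, and replicate 3 had 45 (65.2%) where all genes had 56.2%. The intervals cover counting error only. No test was made over the members, because the list was drawn up with earlier results of these data known.

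The member summits were mostly in the weaker part of the reproducible list. Their 21 summits had a median rank of 2685 of 3917 (median signal 156), against a median rank of 1580 (median signal 229) at all 2895 genes with a reproducible summit. Of the 21, 13 lay below rank 1958, the midpoint of the list, as did 1156 of the 2895. The highest rank was 360, at Vha14-1, and the lowest 3769, at Rab1.

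Widely expressed copies carried reproducible summits at a higher share than tissue-limited ones. The copies were sorted by general knowledge of where each gene is used, since these files hold no expression values. The sorting was done with earlier results of these data known. Of the members, 27 were put down as widely expressed, 26 as tissue-limited, 12 as unsure and 4 were not classed. A reproducible start-site summit was found at 15 of the 27 widely expressed copies (55.6%, exact 95% interval 35.3 to 74.5%) and at 2 of the 26 tissue-limited copies (7.69%, 0.946 to 25.1%), on either side of the 20.8% of all genes. Among pump genes the counts were 10 of 14 and 1 of 15, and among Rab genes 5 of 13 and 1 of 11. The pooled list held a start-site summit for 26 of 27 (96.3%) and 10 of 26 (38.5%), around the background of 58.4%. Each replicate alone ordered the classes the same way, with 26 of 27 and 11 of 26 in replicate 1, and 24 of 27 and 11 of 26 in replicate 3. In no list at all was a start-site summit found for 10 tissue-limited copies, against 1 widely expressed copy. The share of all genes without a summit in any list is not given. The 10 include Rab9Db, Rab9E, Rab9Fa and RabX2, where part of the sequence around the start is repeated. A missing peak at these copies does not show missing binding. With a window of 2000 bp, 8 of 26 tissue-limited copies had a reproducible summit (30.8%), above the 25.4% of all genes. The intervals cover counting error only and not the choice of classes, and the difference between the classes was not tested.

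**Figure D1:**
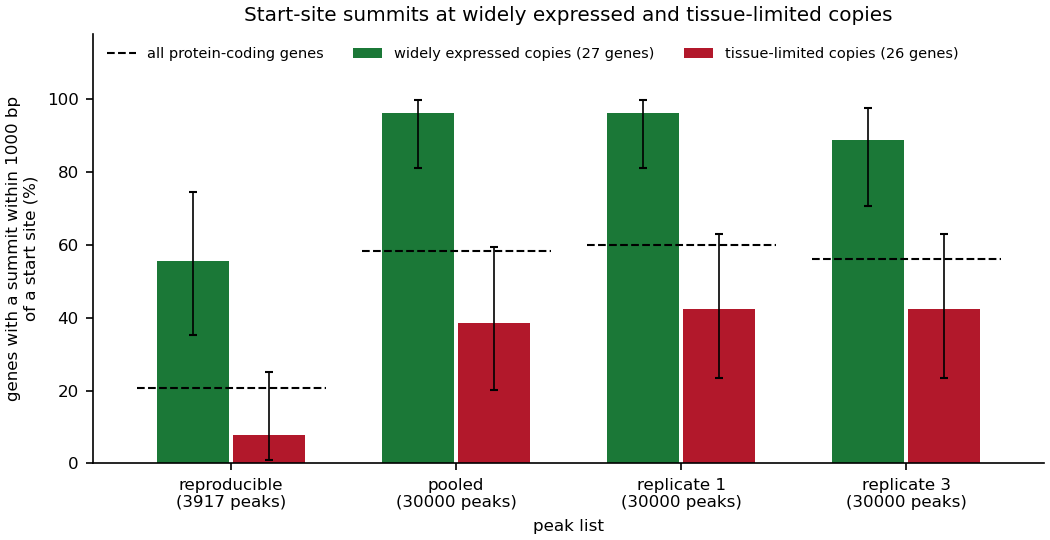
Share of genes with a summit within 1000 bp of a start site, as bars for the 27 widely expressed and the 26 tissue-limited copies in each of the 4 peak lists. Error bars are exact 95% intervals for counting error, and dashed lines give the share of all protein-coding genes (20.8, 58.4, 60.1 and 56.2%). The widely expressed copies lie above the line and the tissue-limited ones below it in each list. The classes were assigned with earlier results of these data known.

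Gene neighbourhoods differed between the classes, and those values stand beside the counts. Another protein-coding start site lay within 1000 bp for 19 of the 27 widely expressed copies and 6 of the 26 tissue-limited ones. Over all genes, 32.5% of those with such a neighbour had a reproducible summit and 11.9% of those without. With a neighbour, 10 of 19 widely expressed and 2 of 6 tissue-limited copies had one. Without a neighbour, 5 of 8 widely expressed copies (Vha16-1, Vha68-2, VhaSFD, Rab1 and Rab11) and 0 of 20 tissue-limited copies had one. Several annotated start sites, which widen the stretch searched, were present in 10 widely expressed and 5 tissue-limited copies. Among genes with 1 start site the counts were 7 of 17 and 1 of 21, where 15.8% of all such genes had a reproducible summit. The part that neighbours and start sites play in the difference was not tested.

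In the V1 sector, the gene used in most tissues had a reproducible summit for 7 of 8 subunits. The summit lay nearest to the pump gene's own start for 4 of the 8 (Vha68-2, Vha55, Vha44 and VhaSFD), and those of Vha14-1, Vha26 and Vha36-1 lay nearer to another gene. Subunit A, which binds and splits ATP, is encoded by copies that sit close together on chromosome arm 2L. Vha68-2 (FBgn0263598), the main copy, had its summit at 12974170, 152 bp upstream of a start. The signal there was 91.1 in replicate 1 and 99.5 in replicate 3, at ranks 2347 and 1933. Vha68-1 (FBgn0265262), a second copy left unsure, had a summit at 13004250, 143 bp upstream, with signals of 87.0 and 146 at ranks 2500 and 1112. Vha68-3 (FBgn0032464), a copy known from the male germ line, starts 179 bp past the end of Vha68-2 on the same strand, and none of the 4 lists had a summit within 1000 bp of its start. The nearest reproducible summit lay 4616 bp away and was that of Vha68-2.

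The sequence under the summits of both A copies and of VhaSFD (the H subunit) and Vha55 (the B subunit) is shown because these summits lie nearest to the pump gene's own start and differ in the words they hold. All are the plus strand of the RefSeq Release 6 assembly (dm6), read 5′ to 3′, with matches in capitals. Vha68-2 (chr2L:12974110-12974230) holds the reverse complement of GGTCACAC, the element of the promoter factor M1BP, and after it that of GAGAG, the word of GAGA factor. VhaSFD (chr2L:16727838-16728002) holds TATCGATA, the DNA replication-related element. Vha68-1 (chr2L:13004190-13004310) holds none of the words searched. These 3 windows are centred on the summit. The stretch at Vha55 (chr3R:12627757-12627784) ends short of its summit and shows CACGTG, whose nearer end lies 45 bp from it.
Vha68-2: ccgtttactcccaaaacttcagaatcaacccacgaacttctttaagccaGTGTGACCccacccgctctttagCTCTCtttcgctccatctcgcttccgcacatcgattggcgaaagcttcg
VhaSFD: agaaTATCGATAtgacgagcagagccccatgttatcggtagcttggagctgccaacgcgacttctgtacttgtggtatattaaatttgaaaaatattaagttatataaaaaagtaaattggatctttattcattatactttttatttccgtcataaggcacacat
Vha68-1: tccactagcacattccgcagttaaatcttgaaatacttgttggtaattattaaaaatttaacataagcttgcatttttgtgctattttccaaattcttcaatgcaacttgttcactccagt
Vha55: tgctgtgacgtCACGTGccgtcacatga

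Subunits B, C, E and H are single genes. Vha55 (FBgn0005671, 3R), the B subunit that alternates with A around the ATPase head, had its summit at 12627818, 11 bp downstream of a start. Its signals were 73.8 in replicate 1 and 69.7 in replicate 3, and the ranks of 3171 and 3047 were the closest among the 21 members with a reproducible summit. Vha44 (FBgn0287825, 2R), the C subunit that joins the sectors, had a summit 2 bp upstream of a start, with signals of 73.1 and 46.0 at ranks 3212 and 4899. Vha26 (FBgn0283535, 3R), the E subunit of the peripheral stalk, had signals of 80.6 and 56.0 at ranks 2811 and 3927. VhaSFD (FBgn0027779, 2L), the regulatory H subunit, had a summit 94 bp upstream, with signals of 70.5 and 57.5 at ranks 3382 and 3818. All 4 summits ranked between 3130 and 3588 in the reproducible list, close to its end at 3917.

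For subunits D and F, both of the rotor, the main copy and the extra copies parted. Vha36-1 (FBgn0022097, 2R) had a summit at 15541392, 43 bp upstream of its start and nearer to CG8187, at 29 bp. Its signals were 72.8 in replicate 1 and 61.7 in replicate 3, at ranks 3231 and 3523. Its copy Vha36-2 had no start-site summit in any list. Vha36-3 had weak ones in the 3 relaxed lists, the best at rank 17049 in replicate 1. Vha14-1 (FBgn0262512, 2R) held the strongest summit of all members, at 15679192 and rank 360, with signals of 224 and 318 at ranks 529 and 263. That summit lay 892 bp downstream of the start, past the far end of this short gene (15679426 to 15680084, minus strand), and 236 bp upstream of Gmppa. Vha14-2 had a start-site summit in replicate 3 alone, at rank 12266. Of the widely used V1 genes, Vha13 (FBgn0283536, 3R), the G subunit of the peripheral stalk, had no reproducible summit. It had start-site summits at rank 8286 in the pooled list, 7472 in replicate 1 and 3130 in replicate 3. These lay at -140, -872 and -338 bp from its start, where minus is upstream, so the ranks are not of a single summit.

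In the V0 sector, subunits a, c and e had a reproducible summit at the widely used gene, and c″ and d did not. The summits of Vha100-2 (a) and VhaM9.7-b (e) lay nearer to the starts of Vti1b and COX8. That of Vha16-1 (c) lay nearest to its own gene's start. Vha100-2 (FBgn0028670, 3R), the a subunit that anchors the stalk and lines the proton path, had a summit at 18397198 and rank 609. Its signals were 195 in replicate 1 and 216 in replicate 3, at ranks 687 and 561. Its neighbour Vha100-4, a gut copy on the same strand, starts 518 bp past the end of Vha100-2 and had a start-site summit in replicate 1 alone, at rank 26118. Vha100-1, the neuronal copy, had start-site summits at rank 11518 in the pooled list and 6243 in replicate 1, and none in replicate 3. Vha100-3 and Vha100-5 had a start-site summit in replicate 1 alone, at ranks 23381 and 18633.

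The proton-carrying ring is built mainly of subunit c. Vha16-1 (FBgn0262736, 2R), its main gene, had a summit 181 bp upstream of a start at rank 1444, with signals of 108 in replicate 1 and 135 in replicate 3 at ranks 1828 and 1255. Of the 4 other c genes, Vha16-5 had a reproducible summit. Vha16-2 and Vha16-3 had pooled ones at ranks 13293 and 13836, and Vha16-4 had none in any list. For subunit e, VhaM9.7-b (FBgn0028663, 3L) had signals of 45.0 in replicate 1 and 105 in replicate 3, at ranks 6792 and 1766. Of its copies, VhaM9.7-a had pooled rank 5816, VhaM9.7-c had 23473 and VhaM9.7-d none in any list.

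Subunit d ran against the order seen at the other subunits. VhaAC39-1 (FBgn0285910, X, 3880748 to 3882967), the widely used gene, was the 1 widely expressed copy without a start-site summit in any list, and its nearest reproducible summit was 12104 bp away. Its male germ-line copy VhaAC39-2 (FBgn0039058, 3R) had start-site summits at rank 8278 in the pooled list and 5431 in replicate 3, and none in replicate 1. For c″, the widely used VhaPPA1-1 had weak summits at ranks 14868 (pooled), 22657 (replicate 1) and 12382 (replicate 3). The neighbouring VhaPPA1-2 had none. The accessory gene VhaAC45, which helps assemble and steer the pump, had pooled rank 10303, and the related VhaAC45RP had no start-site summit in any list.

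**Figure D2:**
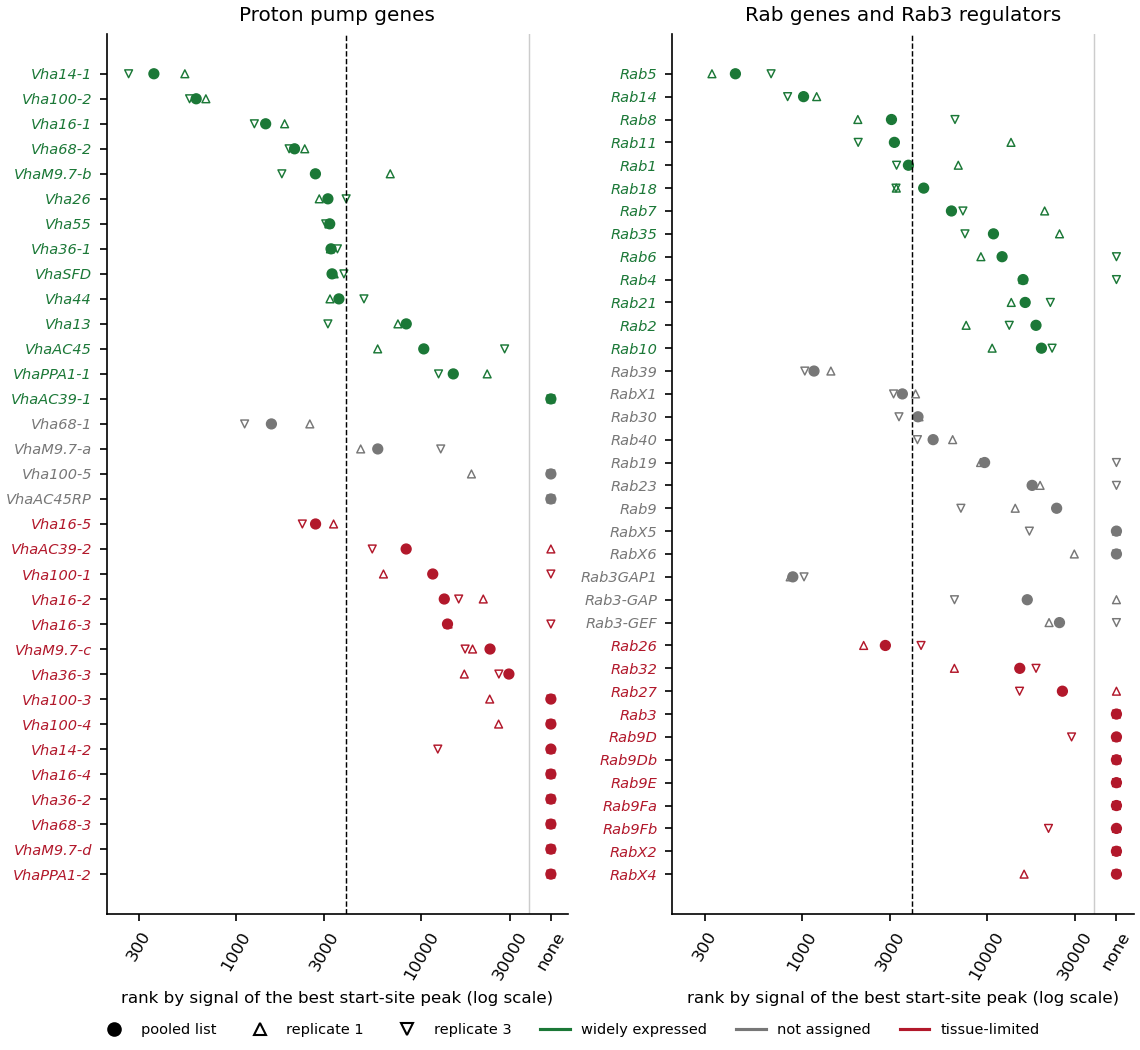
Rank by signal (log scale) of the best start-site peak of each member in the pooled list (filled circles), replicate 1 (upward triangles) and replicate 3 (downward triangles), with pump genes on the left and Rab genes and Rab3 regulators on the right. The dashed line is rank 3917, where the reproducible list ends, and "none" marks members without a start-site summit in a list. Filled circles left of the line are 15 green (widely expressed), 4 grey (not assigned) and 2 red (tissue-limited) genes.

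Of the 13 widely expressed Rab genes, Rab1, Rab5, Rab8, Rab11 and Rab14 had a reproducible summit. Rab5 (FBgn0014010, 2L), which directs fusion of early endosomes, had the strongest, at 2363774 and rank 439. Its signals were 289 in replicate 1 and 193 in replicate 3, at ranks 328 and 684. Rab5 has 6 start sites, and the summit lay in one of its introns, 270 bp upstream of the nearest of them. Rab14 (FBgn0015791, 2L), an endosomal Rab, had a summit at 14355724 and rank 1024, with signals of 143 and 172 at ranks 1205 and 840. This one lay 579 bp downstream of the nearest start, in an intron of the gene.

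Rab8, Rab11 and Rab1 stood near the end of the reproducible list and, among the Rab summits, differed most in rank between replicates. Rab8 (FBgn0262518, 3L), which guides vesicles to the plasma membrane, had signals of 101 in replicate 1 and 35.6 in replicate 3, at ranks 2010 and 6723. Rab11 (FBgn0015790, 3R) had 30.6 and 96.4, at ranks 13486 and 2019. Rab1 (FBgn0285937, 3R) had 39.0 and 66.0, at ranks 8753 and 3253. Rab8 was thus high in replicate 1, and Rab11 and Rab1 in replicate 3.

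The sequence under 4 Rab summits is shown because each holds the forkhead consensus RYAAAYA (R is A or G, Y is C or T), and that of Rab8 because it does not. The strand and assembly are as for the pump genes, and matches are in capitals. Rab5 (chr2L:2363704-2363844), Rab14 (chr2L:14355664-14355784), Rab11 (chr3R:21111111-21111231) and Rab26 (chr3L:21321992-21322112) are centred on the summit. In Rab26 the match is on the minus strand, and in Rab5 the capitals near the end mark CACGTG. The stretch at Rab8 (chr3L:19871078-19871107) shows TATCGATA, which begins 22 bp from the summit.
Rab5: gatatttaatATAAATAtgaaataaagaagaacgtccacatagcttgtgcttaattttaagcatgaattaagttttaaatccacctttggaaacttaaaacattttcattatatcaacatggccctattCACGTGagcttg
Rab14: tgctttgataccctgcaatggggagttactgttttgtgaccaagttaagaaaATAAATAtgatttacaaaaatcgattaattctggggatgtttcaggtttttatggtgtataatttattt
Rab11: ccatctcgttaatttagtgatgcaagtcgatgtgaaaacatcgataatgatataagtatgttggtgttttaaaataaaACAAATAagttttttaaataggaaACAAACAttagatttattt
Rab26: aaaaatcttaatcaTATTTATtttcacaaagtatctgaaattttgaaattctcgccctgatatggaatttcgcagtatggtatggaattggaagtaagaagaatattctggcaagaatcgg
Rab8: gcgccgtcgtcTATCGATAgcttatcgtac

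The 8 other widely expressed Rab genes had start-site summits in the pooled list, but outside the reproducible one. Rab18, known from lipid droplets, came closest at pooled rank 4557, with ranks of 3243 in replicate 1 and 3230 in replicate 3 that came from summits 791 and 142 bp upstream of its start. Rab7, which drives fusion with lysosomes, had pooled rank 6434, replicate 1 rank 20487 and replicate 3 rank 7420. Rab35 had pooled rank 10845, Rab6 of the Golgi 12072, Rab4 of fast recycling 15666, Rab21 16085, Rab2 of the Golgi 18398 and Rab10 19685. Of these, Rab6 and Rab4 had none in replicate 3. Of 9 Rab genes left unsure, Rab39 (rank 1166) and RabX1 (rank 3496) had reproducible summits, Rab30 and Rab40 followed at pooled ranks 4245 and 5124, and Rab19, Rab23 and Rab9 at 9714, 17537 and 23778. RabX5 and RabX6 had a start-site summit in 1 replicate each. Among the Rab3 regulators, Rab3GAP1, part of a complex that turns Rab3 off, had rank 896, while Rab3-GAP and Rab3-GEF had pooled ranks of 16507 and 24636.

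Both tissue-limited copies with a reproducible summit had another gene start within 1000 bp of one of their own. Vha16-5 (FBgn0032294, 2L) had a summit at 10737298, 255 bp upstream of its start and 47 bp upstream of CG12299. Its signals were 70.7 in replicate 1 and 87.8 in replicate 3, at ranks 3359 and 2278. Rab26 (FBgn0086913, 3L), a Rab of synaptic vesicles, had a summit at 21322052 in an intron, 329 bp upstream of one of its 3 starts, and no other gene start lay within 1000 bp of that summit. Its signals were 96.5 and 50.3 at ranks 2161 and 4410. The Polycomb gene Pc starts within 1000 bp of a start of Rab26 but farther than that from the summit.

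The other 24 tissue-limited copies had weak or no start-site summits. Their best pooled rank was 8278, at VhaAC39-2, and the other pooled ones were at Vha100-1, Vha16-2, Vha16-3, VhaM9.7-c, Vha36-3, Rab32 (a Rab of eye pigment granules, rank 15040) and Rab27 (rank 25548). Rab3, of synaptic vesicles, had no start-site summit in any list, but a reproducible summit of rank 3558 lay inside the gene, 1041 bp from its start. This made it the member nearest to the 1000 bp limit from outside, followed by Rab23 at 1139 bp, while Vha14-1 at 892 bp was the nearest from inside. RabX4, a neuronal Rab, had a start-site summit in replicate 1 alone, at rank 15869. The X-linked copies Rab9Db, Rab9E, Rab9Fa and RabX2 had none in any list, and Rab9D and Rab9Fb had one in replicate 3 alone, at ranks 28632 and 21492. Around most of these starts part of the sequence is repeated: 53.5% of the 36-base words within 1000 bp of the start occurred once on the 6 arms for Rab9D, 47.8% for Rab9Db, 48.1% for Rab9E, 45.0% for Rab9Fa and 85.5% for RabX2, while Rab9Fb had 98.1%. How the authors treated reads from repeated sequence is not given in the sources used here, so a missing peak at the copies with repeated sequence does not show missing binding.

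Many member summits lay between a pair of genes. Of the 21 summits, 17 were upstream of the member's nearest start, with a median position 149 bp upstream, and 15 had another protein-coding start within 1000 bp. Counted from the gene's own starts, 16 of the 21 members had such a neighbour. Of all 2895 genes with a reproducible summit 1946 did, so a close neighbour is not particular to the members. The member's own start was the nearest for 12 of 21. Counted that way, members stood at 12 of 69 (17.4%) and all genes at 14.3%. Widely expressed copies stood at 10 of 27 and tissue-limited ones at 1 of 26. The 9 summits closer to another gene included some of the strongest: the Vha14-1 summit lay nearer to Gmppa, a sugar-nucleotide enzyme, and that of Vha100-2 lay 203 bp downstream of the start of Vti1b, a vesicle fusion protein. The Rab39 summit lay 32 bp downstream of the start of Pdp, the Vha26 summit 74 bp upstream of the splicing gene noi, and the VhaM9.7-b summit 135 bp upstream of COX8, of the respiratory chain. Rab3GAP1, Vha16-5, Vha36-1 and RabX1 shared theirs with CG14352, CG12299, CG8187 and mi, at 104, 47, 29 and 102 bp. By position, 13 summits were between genes, 5 in a 5′ untranslated region, 3 in an intron and 0 in a coding exon. The untranslated regions at Vha100-2, Rab39 and Vha44 were those of Vti1b, Pdp and Hmgs. These positions, like the count upstream of a start and its median, are not set beside those of all genes.

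**Figure D3:**
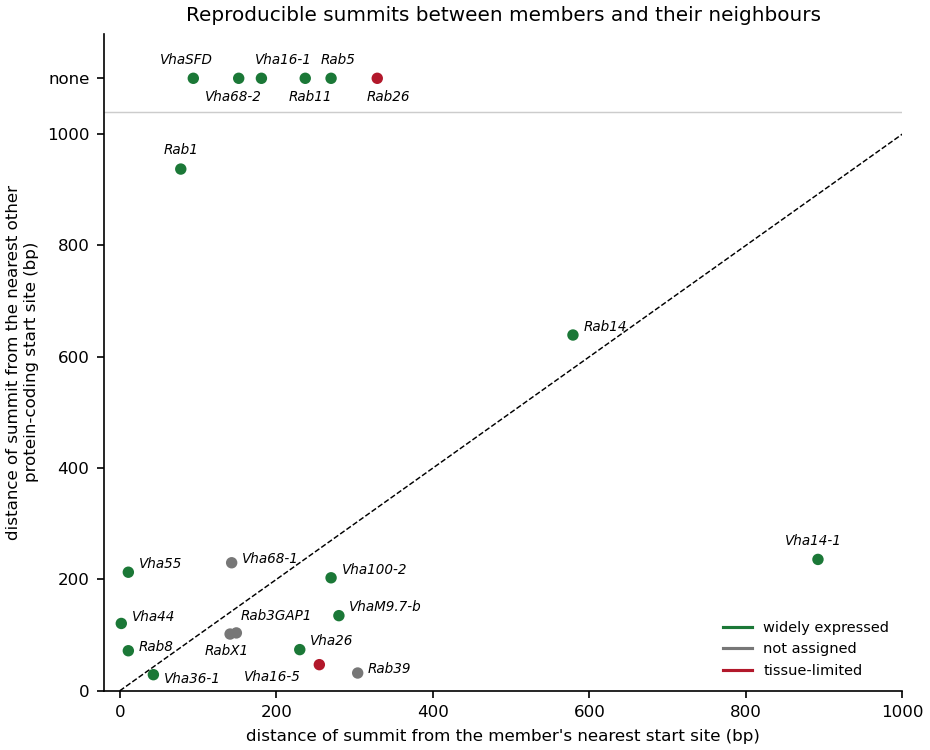
Each point is the reproducible summit of 1 member, placed by its distance in bp from the member's nearest start site (horizontal) and from the nearest start site of another protein-coding gene (vertical), with "none" where no other start lies within 1000 bp. Points above the dashed diagonal are nearer to the member's own start. These are 12 of the 21, and Vha14-1 is the farthest from its own start at 892 bp.

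Among the neighbouring genes, 3 that act in membrane traffic or nutrient sensing were picked out after their positions were seen. The Vha55 summit, at its own start, was 213 bp upstream of Snx3, a sorting protein of endosomes. That of Vha68-1 was 230 bp upstream of mTor, the kinase that senses amino acids at the lysosome. The Rab1 summit had AP-2sigma, a subunit of a clathrin adaptor, 937 bp away. These pairings follow from where the genes lie and were not tested against other genes.

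The 21 summits come from a list selected for agreement between these replicates, so their closeness in position is partly given by that choice. The nearest summit in each replicate's list lay a median of 14.5 bp and at most 85 bp from the reproducible one, at 42 comparisons. For Rab1 the strongest start-site summit of replicate 1 was another one, 703 bp downstream of the start, at rank 7004 with a signal of 44.2. Of the 21, 13 ranked among the 3917 highest peaks of both replicates and 8 of 1 replicate. The 8 were VhaM9.7-b, Rab11, Rab1 and RabX1, which were high in replicate 3, and Rab26, Rab8, Vha26 and Vha44, which were high in replicate 1. Keeping only peaks among the best of both replicates lowered the share of members from 30.4% to 18.8%. The share of all genes went from 20.8% to 17.2%, a smaller loss. Ranks differed 3 times or more for VhaM9.7-b, Rab8 and Rab11, by 3.85, 3.34 and 6.68 times. With 2 replicates and no spread to set these against, they are given as values.

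**Figure D4:**
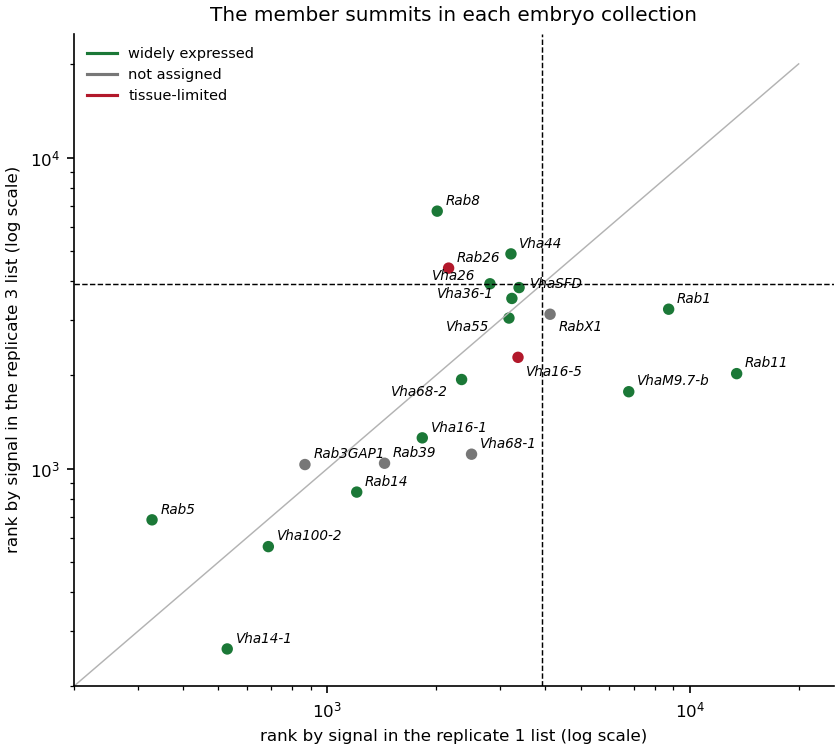
Rank by signal of the 21 member summits in the lists of replicate 1 (horizontal) and replicate 3 (vertical), both on log scales, coloured by expression class. Dashed lines mark rank 3917 and the grey line equal ranks. The 13 points in the lower left are among the best 3917 peaks of both replicates, and Rab11 (ranks 13486 and 2019) lies farthest from the grey line.

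The forkhead consensus was counted at the member summits and at all start-site summits. Within 100 bp of the summit, on either strand, RYAAAYA was present at 9 of 21 member summits (42.9%), against 1348 of all 2264 reproducible summits near protein-coding starts (59.5%), a difference that was not tested. Of the 9, 4 are the Rab5, Rab14, Rab11 and Rab26 summits printed above. The others were at RabX1, Rab3GAP1, Vha14-1, Vha16-5 and Vha36-1. At Rab14 the match lay 2 to 8 bp from the summit, and at Rab11 there was a pair of matches 18 to 48 bp away. The stricter word TGTTTAC, whose reverse complement is itself a match to RYAAAYA, was at Vha36-1 alone, against 7.07% of all.

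Promoter and E-box words were at few member summits each. TATCGATA was at VhaSFD and Rab8 (9.52% of member summits and 4.55% of all), and GGTCACAC at Vha68-2 (4.76% and 2.52%). CACGTG, the core bound by Mitf, a lysosomal regulator known in flies to switch on pump genes, and by related factors, was at 3 of 21 (14.3%): Rab5, Vha55 and Vha44. It was at 2.16% of all. GAGAG, the word of GAGA factor, was at 3 of 21 (14.3% and 17.4%), and the proneural E-box CAGSTG (S is C or G) at 5 of 21 (23.8% and 13.2%). None of the 7 words was within 100 bp of 5 summits, those of Rab39, Vha16-1, Vha68-1, Vha26 and Rab1. Guanine and cytosine made up a median of 34.3% of the member windows, from 26.4 to 50.7%, and a median of 33.3% of all windows.

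CACGTG was then counted in promoters whether or not they held a peak. Between 250 bp before and 50 bp after a start site it was present at 744 of 13945 genes (5.34%) and at 6 of the 69 members (8.70%). Of the widely expressed pump genes, 3 of 14 had it (Vha44, Vha55 and Vha68-2). All 3 had a reproducible summit, as did 10 of the 14, and at Vha68-2 the word was not within 100 bp of the summit. Of the widely expressed Rab genes 1 of 13 had the word (Rab14), and of the tissue-limited copies 1 of 26 (VhaM9.7-d). Vha44, Vha55, Vha68-2 and Rab14 each have several annotated start sites, which widen the stretch searched. The last of the 6 was VhaAC45RP, which like VhaM9.7-d had no start-site summit in any list. A match is a word in the sequence and not a measured site.

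Genes that work with the pump and with Rab proteins had reproducible summits at 17 of 36 (47.2%), next to the 20.8% of all genes. The summit lay nearest to their own start in 10 of 36 (27.8%), next to 14.3%. These genes were listed from general knowledge with earlier results of these data known, and the differences from all genes were not tested. Of the 3 genes for pump assembly and control, Rbcn-3A (rank 3628) and Rbcn-3B (rank 2596), whose proteins help join V1 to V0, had one, and Mitf did not (pooled rank 4948, replicate 1 rank 3378, replicate 3 rank 20486). The Rbcn-3B summit was 935 bp from its start and 6 bp from that of Edem1.

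Tethering and exchange factors of the late endosome included the highest rank in this list. Mon1 and Ccz1 form the exchange complex that loads Rab7. The Mon1 summit, 84 bp upstream on 2L, had rank 178, with signals of 375 in replicate 1 and 384 in replicate 3 at ranks 195 and 185, above every member. Ccz1 had rank 1611, with 1835 and 1533 in the replicates. Of the 7 other genes of the HOPS and CORVET tethers, car (rank 1261) and Vps39 (rank 2884) had a reproducible summit. Those summits lay nearer to Grip84 and eIF1A, 120 and 92 bp from their starts. The genes dor, lt, Vps11, Vps16A and Vps8 had no reproducible summit. Rabenosyn, the Rab5 effector encoded by Rbsn-5, had rank 464, with its summit 113 bp upstream and 81 bp from PAPLA1. Its partner Vps45 had rank 2039, with the summit 147 bp from its own start and 104 bp from that of CG9393.

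The remaining regulators were divided. Among exchange factor genes, Rich (rank 3118) and strat (rank 2146) had a reproducible summit. Of 8 genes for GTPase-activating proteins, wkd (1362), sky (1716), RN-tre (2451) and plx (3739) did, and the plx summit is the one 1139 bp from Rab23. Of the other effector genes, btsz (2538) and nuf (2861) did. The nuf summit, 691 bp upstream of this Rab11 effector gene, lay 531 bp upstream of nan, a channel gene of chordotonal neurons. Neither Gdi nor Rep, which carry Rab proteins on and off membranes, had a reproducible summit, with pooled ranks of 6307 and 4743.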

How the data were processed

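Peaks of GFP-tagged fd3F (narrowPeak, dm6 by the deposited descriptions) were used as the authors gave them. The authors' lists cover replicate 1, replicate 3, both pooled, and reproducible peaks selected by irreproducible discovery rate. Which caller, aligner and threshold were used is not given in the sources used here. Peaks were ranked within each list by the deposited signal, and the deposited −log10 q-value was read to count peaks of q at most 0.05. All 3917 reproducible peaks were found to be the top of the pooled list.

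Start sites came from Ensembl 115 (FlyBase 6.54), and sequence from the RefSeq Release 6 assembly. No peak ran past the end of an arm. Protein-coding genes off the 6 arms (41) were left out. A gene counts when a summit lies within 1000 bp of any start site, and its highest-signal summit is used. Values per replicate of the 21 reproducible summits are those of the nearest summit in that replicate's list. Intervals are exact (Clopper-Pearson). Shares take genes as units, neighbouring genes can share a summit, and no test was made.

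Members, expression classes and the list of related genes were chosen with earlier results of these data known, classes and list from general knowledge. Of the related genes, TBC1D7 had no match, and 1 that is counted among them is not reported here by itself. Every member was accounted for, with values for members with a reproducible summit, for widely expressed copies without one and for tissue-limited copies with one. Python 3.11.15 was used, with scipy 1.17.1 for intervals, pandas 2.3.3 and numpy 2.4.6 for tables and matplotlib 3.10.9 for plots. The gene assignment was tested on simulated data. Alternatives were other windows, lists, start sites, overlap rules and class assignments. Nearest-start counting and leaving out the Rab3 regulators were added after seeing the data.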

Additional observations from a re-analysis of the deposited data

How the results depend on the processing

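The excess of widely expressed over tissue-limited copies kept its direction under each alternative run. Of 21 members, 15 widely expressed and 2 tissue-limited copies with a reproducible start-site summit, a single replicate gave 18 to 20 members, 13 to 14 widely expressed and 1 to 2 tissue-limited copies. With a 2000 bp window 8 of 26 tissue-limited copies had a summit (30.8%, all genes 25.4%) and 15 of 27 widely expressed ones. The tissue-limited share was then above that of all genes, where with the 1000 bp window it was below. The 1958 peaks of highest signal held 8 members (11.6%, all genes 12.5%), with 5 widely expressed and 0 tissue-limited copies. The whole pooled list held 48, 26 and 10. Peaks among the best of both replicates gave 13 members (18.8%, all genes 17.2%), 9 and 1. Among genes with no other start site within 1000 bp there were 5 of 35 (14.3%, all such genes 11.9%), 5 of 8 and 0 of 20, and with the summit nearest to the own start 12 of 69 (17.4%, all genes 14.3%), 10 of 27 and 1 of 26. With 1 start site per gene, 1 tissue-limited copy had a summit, and with unsure genes counted as tissue-limited 5 of 38 did. For the members as a whole, the share was thus close to that of all genes under these 4 alternatives: the 1958 strongest peaks, peaks of both replicates, genes with no other start nearby and own start nearest. The other alternatives left each count within 1.5 times the reported one. No paired analysis was possible because there is 1 group. Read depth is unknown, and the signal carries no error of its own.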
